A study of Mus musculus with 8 samples.

Results

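The genes described are 10 markers of the cells that form brain vessels, read from the table of normalized counts by their gene names. All 10 were found among the 34620 gene names, each with 1 record in the annotation, and all 10 passed the minimum mean of 1 normalized count and were tested with 19789 genes in all. The endothelial genes are Cldn5, Pecam1, Flt1, Slco1a4, Tek and Slc2a1, and the mural genes (pericytes and smooth muscle) are Pdgfrb, Rgs5, Acta2 and Vtn. They were measured by sequencing of total RNA from the hippocampus and the prefrontal cortex (PFC) of untreated C57Bl6 mice (C57Bl/J6 in the methods) aged 7 to 9 weeks by the labels, where 1 paragraph of the methods gives another range, with 4 libraries per region that each combine the tissue of 2 mice. The design counts 8 adult mice, which would make the pools of the regions the same, but which libraries share a pool is not stated and the comparison was unpaired. A normalized count is the number of reads of a gene divided by its library's size factor, and differences are given as hippocampus minus PFC on the scale of log2(normalized count + 1).

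Blood vessels of the brain are lined by endothelial cells that are sealed to each other by tight junctions and that move glucose and other solutes by transporters, a wall known as the blood-brain barrier. Mural cells sit on the outside of this tube. Pericytes cover capillaries and are recruited by platelet-derived growth factor B (PDGF-B) from the endothelium, and smooth muscle cells circle arterioles and set their width with contractile actin.

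Acta2, the actin of smooth muscle, was the 1 gene of the 10 that passed the threshold between the regions. Its mean was 1.81-fold higher in the hippocampus, with no overlap between the libraries of the regions, at an adjusted p of 0.049 from limma that did not hold when any 1 library was left out. The other 9 genes did not pass an adjusted p of 0.05, and their 95% intervals together reached from 0.657-fold to 1.28-fold. The 1 call among 10 genes stands beside 1124 calls among all genes tested (5.68%), and beside 2.55% for calls higher in the hippocampus. The median log2 difference was -0.03 over the 10 genes and 0.00 over all genes tested. An unadjusted p under 0.05 was found for Acta2 and Slc2a1 and for 16.9% of all genes tested. In bulk tissue, fewer cells of a type and less RNA per cell cannot be told apart.

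The libraries held between 3164964 and 16636500 reads assigned to genes, so that a count of 0 would have allowed between 1.30 and 6.93 normalized counts (3 reads, counting error only). Every one of the 10 genes had reads in all 8 libraries, with at least 18 in any library. The 4 genes chosen to mark the hippocampus (Prox1, C1ql2, Spink8 and Fibcd1) and the 4 chosen to mark the PFC (Foxp2, Syt6, Stard8 and Mef2c) all passed in the direction of their region. These genes were chosen with earlier results of these data known, so that their passing is no test of the libraries. The PFC libraries were unlike each other in the hippocampal genes, which stood at 36.8 to 54.5% of the hippocampus mean in PFC replicate 1 and at 34.4 to 53.5% in replicate 2, against 15.4 to 27.3% in replicate 3 and 6.80 to 13.3% in replicate 4. Hippocampus replicate 2 stood apart from the other libraries, with an array weight (limma's estimate of a library's precision) of 0.287 where the others ran from 0.667 to 3.01. The methods describe male mice, yet all 8 libraries held Xist, the transcript of the inactive X chromosome, at 1670.4 to 5232 normalized counts, together with reads of all 4 Y-linked genes examined. Without PFC replicates 1 and 2, or without hippocampus replicate 2, none of the 10 genes passed. Of the members with no such value beside their result, Slco1a4 had log2 differences of 0.20 and 0.10 in these settings, Vtn -0.34 and -0.21, Pecam1 0.10 and 0.03, Flt1 -0.09 and 0.01, Tek -0.18 and -0.02, Pdgfrb 0.02 and 0.00, and Rgs5 -0.05 and 0.08.

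**Figure D1:**
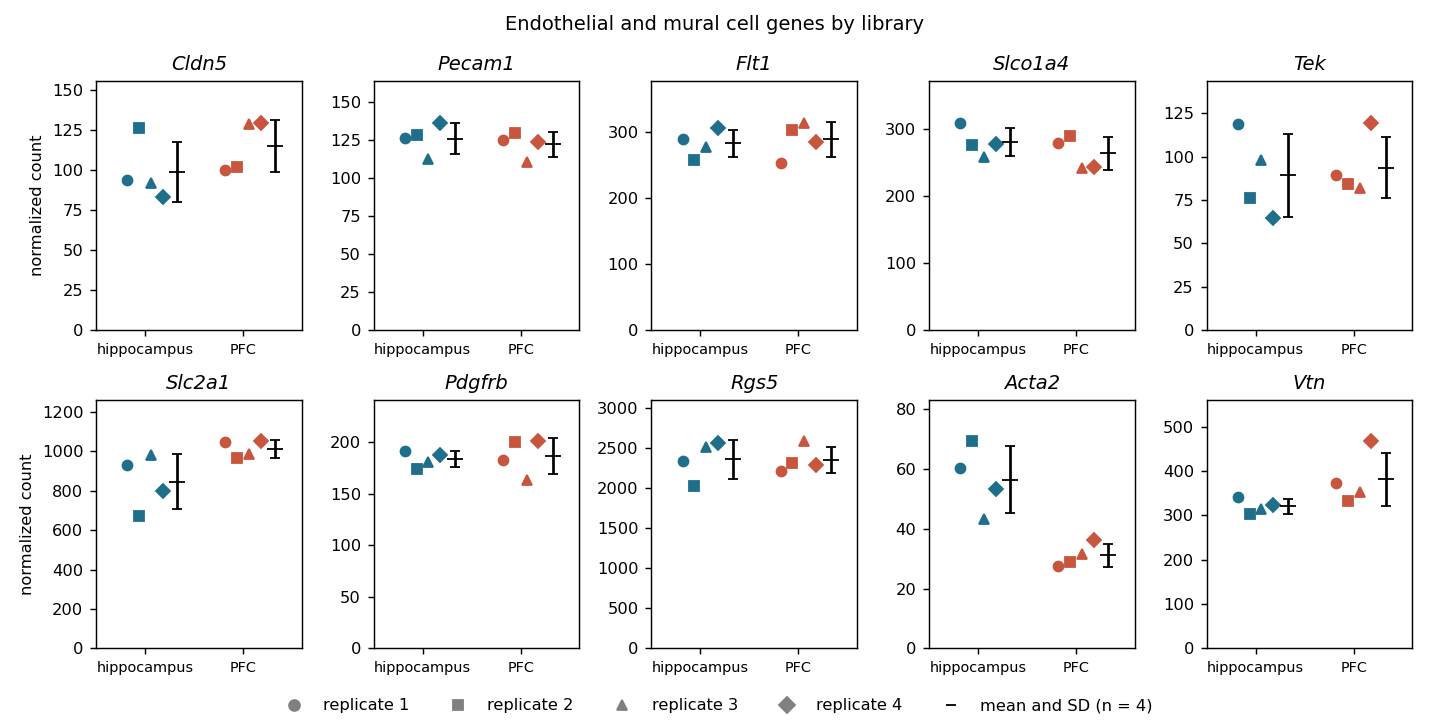
Normalized counts (y axis, from 0) of the 10 endothelial and mural genes in each library (x axis, the 4 hippocampus and 4 PFC libraries, 1 symbol per replicate number), with the mean and SD (n = 4) as bars. Acta2 is the only panel in which the hippocampus libraries (43.1 to 69.3) all lie above the PFC libraries (27.7 to 36.3).

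Neither of the junction and adhesion genes passed the threshold. Cldn5 (chr16:18776940-18778353 on NCBIM37, 1 exon) encodes claudin-5, the main claudin of endothelial tight junctions. It had 93.9, 126, 91.9 and 83.2 normalized counts in hippocampus replicates 1 to 4, and 99.9, 102, 129 and 129.8 in PFC replicates 1 to 4. Hippocampus replicates 1, 3 and 4 lay below all PFC libraries, while replicate 2 lay among the higher PFC values, so that the regions overlapped. The means were 98.8 ± 18.8 and 115 ± 16.5 (SD, n = 4), a log2 difference of -0.23 (SE 0.18, 95% interval -0.61 to 0.15, limma adjusted p = 0.62). Without hippocampus replicate 2 the difference was -0.35 (limma adjusted p = 0.22), and without PFC replicates 1 and 2 it was -0.40 (limma adjusted p = 0.42). Pecam1 (chr11:106515531-106611942), an adhesion molecule at the contacts between endothelial cells, had 126, 128, 112 and 136 in hippocampus libraries, against 124, 129, 110.3 and 124 in PFC libraries. The 8 values were close to each other and the regions overlapped almost wholly, with a log2 difference of 0.04 (SE 0.15, interval -0.27 to 0.36, limma adjusted p = 0.94).

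The endothelial receptors did not pass either. Flt1 (chr5:148373180-148537587), a receptor that binds vascular endothelial growth factor (VEGF), had 289.5, 258, 278 and 307 normalized counts in hippocampus libraries, against 254, 304, 315 and 286 in PFC libraries. Its lowest and its highest value were both PFC libraries, so that the hippocampus lay inside the range of the PFC. The log2 difference was -0.03 (SE 0.12, interval -0.29 to 0.23, limma adjusted p = 0.95). Tek (chr4:94405980-94541667) encodes Tie2, the receptor of the angiopoietins, and had 119, 76.0, 98.2 and 64.7 in hippocampus libraries, against 89.1, 84.1, 81.6 and 119.7 in PFC libraries. Hippocampus replicate 1 and PFC replicate 4 were the high libraries, and the hippocampus also held the lowest one. Tek varied the most of the 10 genes within the hippocampus, with a coefficient of variation of 26.8% where counting error alone gives 10.1%. Its log2 difference was -0.09 (SE 0.21, interval -0.53 to 0.36, limma adjusted p = 0.91), and its sign changed when hippocampus replicate 4 or PFC replicate 4 was left out (0.053 and 0.035).

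Of the 9 genes that did not pass, the glucose transporter Slc2a1 had the lowest p. Slc2a1 (chr4:118781316-118809935) encodes GLUT1, which carries glucose from blood into the brain. Its normalized counts were 932, 671, 984 and 797 in hippocampus libraries, against 1048, 965, 984 and 1052 in PFC libraries. Hippocampus replicates 1, 2 and 4 lay below all PFC libraries, while replicate 3 lay between PFC replicates 2 and 1 and at the level of PFC replicate 3. The means were 846 ± 141 and 1012.5 ± 44.3 (SD, n = 4), a 1.20-fold higher mean in the PFC. The log2 difference of -0.27 (SE 0.12, interval -0.53 to -0.02) had an unadjusted p of 0.035 and an adjusted p of 0.24 in limma. On the recovered reads the unadjusted p was 0.058 in edgeR and 0.056 in DESeq2, and without hippocampus replicate 2 the difference was -0.17 (limma unadjusted p = 0.084). It was -0.28 without PFC replicates 1 and 2 (limma adjusted p = 0.45). Reads were counted without strand, and 105 of its exon bases (3.68%) are shared with an antisense transcript, Gm12868, whose reads there cannot be told apart. Slco1a4 (chr6:141753961-141804720), a transporter of organic anions in barrier endothelium, had 309.9, 276, 259 and 277 in hippocampus libraries, against 279.7, 290.0, 242 and 243 in PFC libraries. The regions overlapped, with hippocampus replicate 1 the highest and PFC replicates 3 and 4 the lowest. Its log2 difference was 0.09 (SE 0.12, interval -0.17 to 0.35, limma adjusted p = 0.81).

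The pericyte genes Pdgfrb and Rgs5 had differences close to 0. Pdgfrb (chr18:61204804-61244715) encodes the receptor through which pericytes answer PDGF-B. It had 192, 174, 181 and 187 normalized counts in hippocampus libraries, against 183, 199.6, 163 and 201 in PFC libraries. All hippocampus values lay inside the PFC range, and within the hippocampus the coefficient of variation was 4.14%, below the 7.60% that counting error alone gives. The log2 difference was -0.02 (SE 0.13, interval -0.30 to 0.26, limma adjusted p = 0.97), and its sign changed in 6 of 20 alternative settings. Rgs5 (chr1:171585632-171625944), a regulator of G protein signalling and a pericyte marker, was the most abundant of the 10 genes. It had 2340.3, 2030.2, 2519 and 2569 in hippocampus libraries, against 2215, 2311, 2589.6 and 2285 in PFC libraries. Hippocampus replicate 2 was the lowest and PFC replicate 3 the highest, and the regions overlapped. The log2 difference was 0.01 (SE 0.10, interval -0.21 to 0.22, limma adjusted p = 0.99), the narrowest interval of the 10.

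Vtn (chr11:78312593-78315826), which encodes vitronectin, an adhesive glycoprotein that brain pericytes make, had 342, 302, 313.5 and 323 normalized counts in hippocampus libraries, against 373, 331, 352 and 467 in PFC libraries. Hippocampus replicate 1 lay above PFC replicate 2, the regions otherwise lay apart, and PFC replicate 4 stood well above all others. The means were 320.3 ± 17.0 and 381 ± 60.0 (SD, n = 4). The log2 difference was -0.24 (SE 0.13, interval -0.51 to 0.03, limma adjusted p = 0.37).

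Acta2 (chr19:34315580-34329826, minus strand, 9 exons of 1781 bases in all) encodes the alpha-actin of smooth muscle, which gives arterioles their contractile filaments. It had 60.2, 69.3, 43.1 and 53.1 normalized counts in hippocampus replicates 1 to 4, and 27.7, 28.9, 31.5 and 36.3 in PFC replicates 1 to 4. The lowest hippocampus library lay above the highest PFC library, and the regions did not overlap, as was also true of 11.8% of all genes tested. The means were 56.4 ± 11.1 and 31.1 ± 3.83 (SD, n = 4). The log2 difference was 0.83 (SE 0.23, 95% interval 0.33 to 1.32, that is 1.26-fold to 2.50-fold), with an unadjusted p of 0.0028 and an adjusted p of 0.049 in limma. These values rest on 18 to 139 reads per library, and the coefficients of variation of 19.6% in the hippocampus and 12.3% in the PFC compare with 13.7% and 19.6% from counting error alone.

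The direction of Acta2 was the same in all 20 alternative settings, with log2 differences of 0.70 to 0.95, while the call was kept in 7 and lost in 13. On the recovered reads it was kept by edgeR (0.84, adjusted p = 0.037), where 5.91% of genes passed, and by DESeq2 (0.84, adjusted p = 0.027), where 7.39% passed. It was lost when any 1 of the 8 libraries was left out (limma adjusted p of 0.059 to 0.16), among them without hippocampus replicate 2 (0.72, limma adjusted p = 0.071). Without PFC replicates 1 and 2 together, the PFC libraries with the most reads of hippocampal genes, it was 0.70 (limma adjusted p = 0.24). Within the PFC these same libraries had the lowest Acta2 values. The coefficient of variation of Acta2 there (12.3%) was below that of counting error alone (19.6%). The order of the PFC libraries is thus not set beyond counting error, and the part of hippocampal tissue was not tested. Genes of the choroid plexus were higher in the hippocampus together with Acta2. Their sum, most of it Ttr, ran from 3640.0 to 8204 normalized counts there and from 603 to 3105 in the PFC. PFC replicate 4, with the least of them, had the highest Acta2 of the PFC libraries, in the order not set beyond counting error. The part of choroid plexus tissue in the Acta2 difference was not tested.

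**Figure D2:**
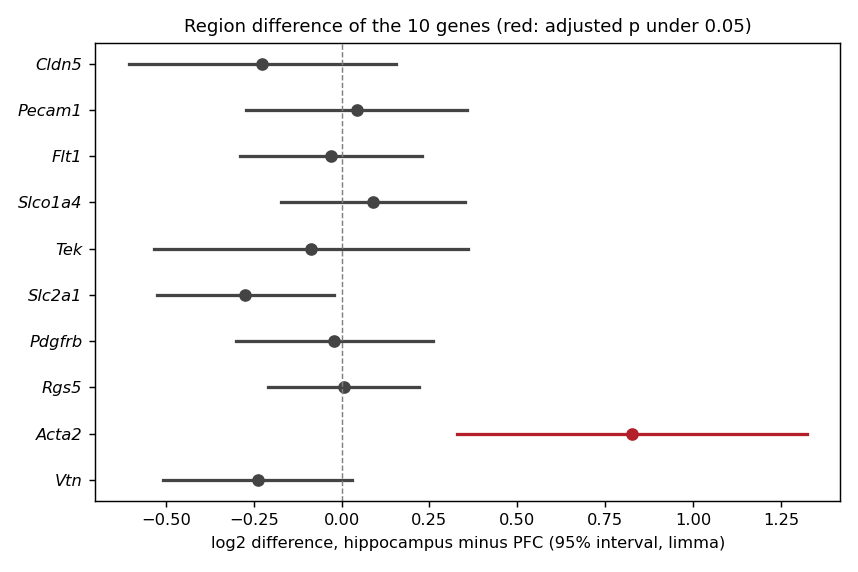
Log2 difference between hippocampus and PFC (x axis, above 0 is higher in the hippocampus) of the 10 genes, with the 95% interval from limma over 4 libraries per region. The interval of Acta2 runs from 0.33 to 1.32 and that of Slc2a1 from -0.53 to -0.02, and the other 8 intervals include 0.

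Other actins closely resemble Acta2 in sequence, and how reads that match several of them were counted is not given in the sources used here. Acta1, the actin of skeletal muscle, had 22.5 to 53.1 normalized counts in hippocampus libraries, against 16.3 to 26.1 in PFC libraries, overlapping ranges (log2 difference 0.61, limma adjusted p = 0.36). Actg2, the actin of visceral smooth muscle, lay between 0 and 0.962 in the hippocampus and between 1.54 and 5.73 in the PFC, with the higher values in the PFC and at few reads (limma adjusted p = 0.27). Actb, the abundant actin of all cells, overlapped between the regions at 5846 to 12168 and 6187 to 9099 (log2 difference 0.06, limma adjusted p = 0.93). Actg1, another actin, stood far below Actb, at 13.9 to 23.4 in hippocampus libraries, against 16.8 to 20.1 in PFC libraries. Its log2 difference was -0.08 (limma adjusted p = 0.95). Whether reads of actins, Acta2 among them, were lost in counting was not tested.

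Because Acta2 was the 1 gene past the threshold, the sequence before its start is shown here. Smooth muscle genes are known to be driven by serum response factor at CArG boxes, in which a run of A and T bases stands between CC and GG. The 250 bases upstream of the Acta2 start in RefSeq (GRCm38.p6, chr19:34255374-34255623, minus strand, printed 5′ to 3′) hold no full CArG box but 2 elements with 1 departure, in capitals, in which 1 base of the run is C or G.
Acta2: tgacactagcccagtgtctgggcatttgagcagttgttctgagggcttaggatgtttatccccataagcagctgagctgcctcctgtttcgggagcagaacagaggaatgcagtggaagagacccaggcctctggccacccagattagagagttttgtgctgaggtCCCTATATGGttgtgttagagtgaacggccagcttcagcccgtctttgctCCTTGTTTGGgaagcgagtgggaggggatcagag
The elements begin at -84 and -34, where -1 is the base before the start. The CArG box reads alike on both strands, so that a search of 1 strand covers both. Of 32851 promoter windows of the same length, 1.47% held a CArG box, 8.59% held a box or an element with 1 departure, and 0.670% held at least 2 of these. Among the members, windows were given for 8, and Slco1a4 had 1 element with 1 departure while Cldn5, Flt1, Tek, Slc2a1, Rgs5 and Vtn had neither form. Of 14 other pericyte and smooth muscle genes with a window, Myl9 had 1 box and 1 element with 1 departure, Tbx18 had 1 element with 1 departure, and the other 12, among them Cnn1, Mylk, Des and Tpm2, had neither form. No window was given for Tagln, Myh11, Higd1b and Ndufa4l2, which were not searched. These matches are descriptions of the letters only.

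Per kb of annotated exons, the 10 genes spanned a wide range in the same tissue. Rgs5 had the highest mean over the 8 libraries (518 normalized counts per kb), followed by Slc2a1 (326), Vtn (173), Cldn5 (75.6), Slco1a4 (70.6), Pdgfrb (33.8), Pecam1 (28.7), Flt1 (24.7), Acta2 (24.6) and Tek (19.4). The ranges over libraries overlapped between Cldn5 and Slco1a4 and between each neighbouring pair from Pdgfrb down to Tek, so that the order within these is not set beyond the spread. The ranges were apart from Rgs5 to Slc2a1, from Slc2a1 to Vtn, from Vtn to Cldn5 and from Slco1a4 to Pdgfrb. Pericyte genes were thus both the highest and among the low genes, as Rgs5 stood far above Pdgfrb in every library. Acta2 was the gene whose place moved the most between regions, from rank 7 in the hippocampus (31.7 ± 6.22 per kb) to rank 10 in the PFC (17.5 ± 2.15, SD, n = 4). Both ranks lie within the stretch from Pdgfrb to Tek, whose order is not set.

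**Figure D3:**
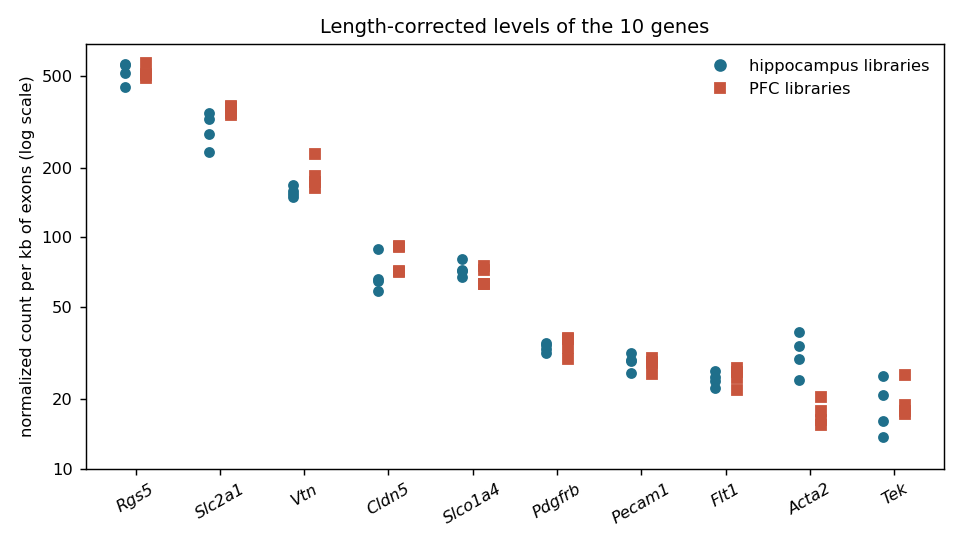
Normalized counts per kb of exons (y axis, log scale) of the 10 genes in each library, ordered by their mean, with circles for the 4 hippocampus and squares for the 4 PFC libraries. Rgs5 is highest (mean 518), and only for Acta2 do the circles and squares separate.

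No library was the highest or the lowest of its region for all 10 genes. PFC replicate 4 had the highest value of its region for 6 of the 10 genes and the lowest for 0, and hippocampus replicate 1 was highest for 4 and lowest for 0. Hippocampus replicate 2 was the lowest of its region for 5 genes and the highest for 2, Cldn5 and Acta2. Summed over the 6 endothelial genes, the hippocampus libraries held 1535 to 1869.9 normalized counts and the PFC libraries 1862 to 1955, ranges that touch at their ends. The sum of the 4 mural genes, most of it Rgs5, was 2576 to 3133 in hippocampus libraries, against 2799 to 3137 in PFC libraries. The summed neuronal genes beside them ran from 35828 in hippocampus replicate 2, the lowest library, to 59599 in PFC replicate 4, the highest. The part of neuronal RNA in the differences of Slc2a1 and Vtn was not tested.

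**Figure D4:**
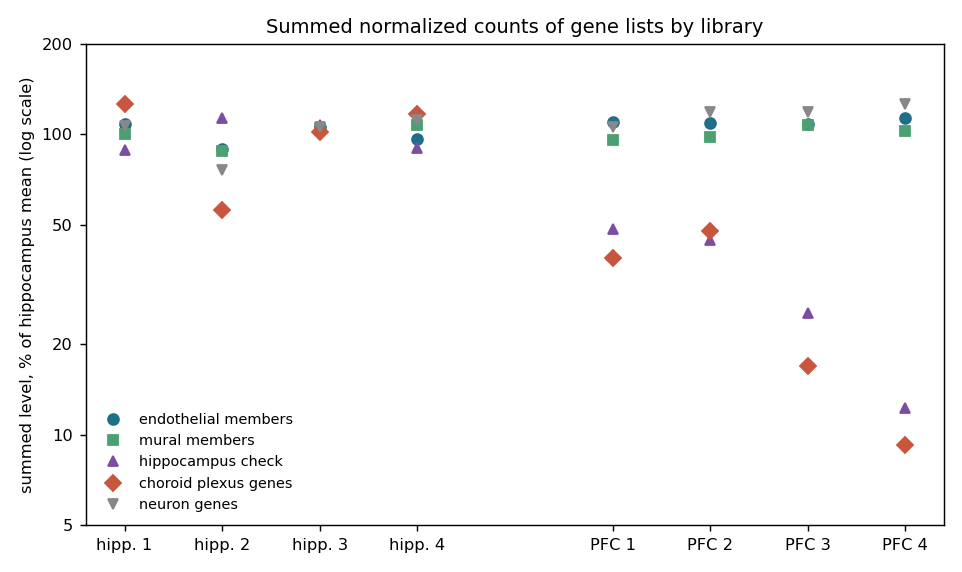
Summed normalized counts of 5 gene lists in each library as a percent of the list's mean over the hippocampus libraries (y axis, log scale; x axis, the 8 libraries). The endothelial and mural sums stay near 100% in both regions, while the hippocampal check genes and the choroid plexus genes are lower in the PFC and differ among its libraries, with the choroid plexus sum at 9.26% in PFC replicate 4 and 47.7% in PFC replicate 2.

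A list of 28 other endothelial genes was examined next. The hippocampus had the higher level in 1 of them, the PFC in 0, and 27 did not pass, with a median log2 difference of -0.10. Of all genes tested, 5.68% passed and 11.8% had regions that did not overlap. The 1 gene was Ocln, which encodes occludin, a protein of tight junctions that epithelia also make. Ocln had 102, 121, 102 and 102 normalized counts in hippocampus libraries, against 32.3, 64.0, 38.7 and 49.8 in PFC libraries. All hippocampus libraries lay far above all PFC libraries (log2 difference 1.24, SE 0.22, limma adjusted p = 0.0025), and the call was kept in all 20 alternatives. The claudin of the same junctions, Cldn5, went the other way in its mean, as given above, and the difference between these genes was not tested. Slc16a1, a carrier of lactate and ketone bodies, had a log2 difference of 0.38 (limma adjusted p = 0.093), and Egfl7, secreted by endothelium, had -0.46 (limma adjusted p = 0.15). Ocln is also made by the epithelium of the choroid plexus, whose list was higher in the hippocampus, and the part of that tissue in the Ocln difference was not tested. Without PFC replicates 1 and 2, the Ocln difference was 1.26.

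Of 18 other pericyte and smooth muscle genes, 1 passed with a higher level in the hippocampus, 0 passed for the PFC, and the median log2 difference was -0.03. A share of 5.68% passed among all genes tested. The 1 gene was Mcam, an adhesion molecule of mural cells and endothelium, with 316, 349, 333 and 261 normalized counts in hippocampus libraries, against 252, 219.7, 221 and 196 in PFC libraries. The lowest hippocampus library lay above the highest PFC library (log2 difference 0.50, SE 0.13, limma adjusted p = 0.036). Regions lay apart, in either direction, for 11.8% of all genes tested. The call was lost in 7 of 20 alternatives, with limma adjusted p-values of up to 0.13 when 1 library was left out. The other contractile and filament genes of smooth muscle did not pass and did not share a direction. Their log2 differences were -0.17 for Tagln, 0.28 for Myh11, -0.14 for Cnn1, 0.68 for Des, 0.13 for Mylk, -0.03 for Myl9 and -0.57 for Tpm2. Cnn1 rested on only 3 to 18 reads per library. Tpm2, a tropomyosin, had 28.4 to 41.4 normalized counts in hippocampus libraries, against 43.0 to 62.8 in PFC libraries, apart in the direction opposite to Acta2 (limma adjusted p = 0.20). Tagln had 14.2 to 25.1 normalized counts in hippocampus libraries, against 18.6 to 43.0 in PFC libraries, overlapping ranges where those of Acta2 did not overlap.

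The ligands and receptors that act on vessels were given by a list of 31 genes, of which 3 passed, all 3 toward the hippocampus, with a median log2 difference of 0.01. Among all genes tested 5.68% passed, and 11.8% had regions that did not overlap. Nrp1, a co-receptor for VEGF and for semaphorins that neurons carry as well, had 1223, 1415, 1198 and 1208 normalized counts in hippocampus libraries, against 718, 621, 465 and 350.3 in PFC libraries. The regions lay far apart (log2 difference 1.27, SE 0.17, limma adjusted p = 0.00024). Nrp2, its relative, had a log2 difference of 0.72 (SE 0.12, limma adjusted p = 0.0013), and both calls were kept in all 20 alternatives. The differences were 1.64 for Nrp1 and 0.89 for Nrp2 without PFC replicates 1 and 2. Pdgfra, which marks oligodendrocyte precursors and fibroblasts rather than pericytes, had a log2 difference of 0.37 (SE 0.10, limma adjusted p = 0.042), a call lost in 11 of 20 alternatives. Ligands of the receptors among the 10 genes did not pass. Vegfa, which acts on Flt1, had a log2 difference of -0.35 (limma adjusted p = 0.26). For Angpt1, which acts on Tek, it was -0.46 (limma adjusted p = 0.20), and for Pdgfb, which acts on Pdgfrb, it was -0.11 (limma adjusted p = 0.87). Of further ligands of these receptors in the list, Pdgfd had 0.73 (limma adjusted p = 0.15), Pgf 0.12 and Angpt2 0.10. Vegfb had -0.31 and Angpt4, at 0 to 12 reads per library, -0.50. None of these passed, and the ligands did not share a direction. Unadjusted limma p-values were under 0.05 for Vegfa (0.039), Vegfb (0.036) and Angpt1 (0.024), lower in the hippocampus, and for Pdgfd (0.015), higher there. Angpt1 had 59.7 to 98.2 normalized counts in hippocampus libraries, against 104.5 to 121.7 in PFC libraries, without overlap.

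**Figure D5:**
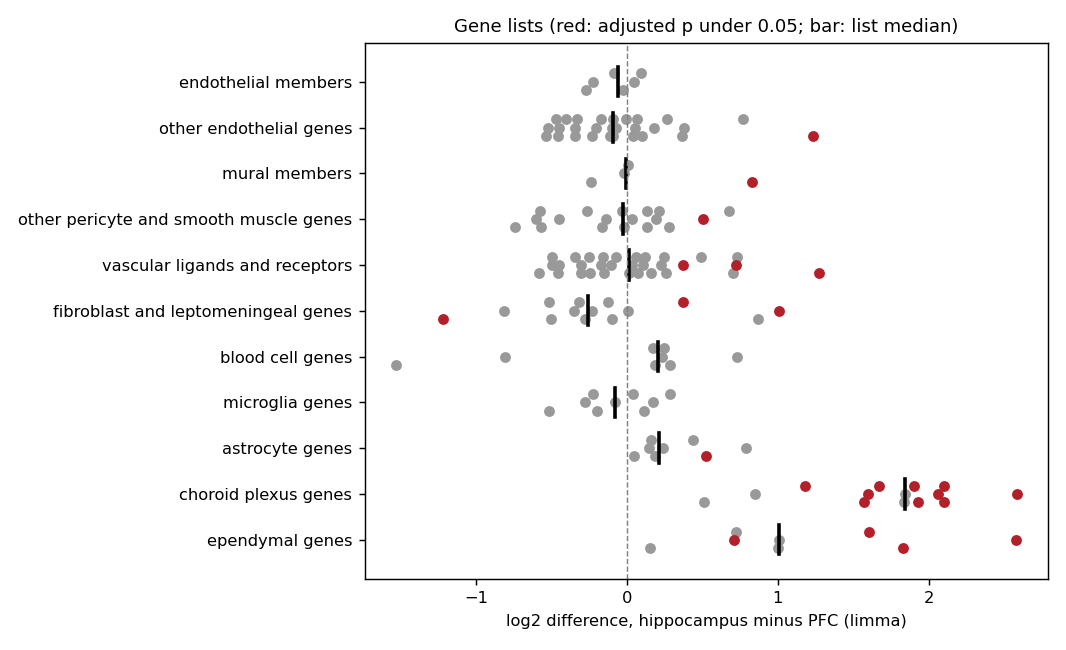
Log2 difference between hippocampus and PFC (x axis) of each tested gene in 11 lists (y axis), red where the limma adjusted p was under 0.05, with a bar at the list median. The medians of the endothelial and mural lists lie near 0, whereas that of the choroid plexus genes is 1.84 and that of the ependymal genes is 1.01.

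Lists for the tissues and cells that border on vessels were examined beside them. Over all genes tested, 5.68% passed and 16.9% had an unadjusted limma p under 0.05. Among the choroid plexus genes 10 of 14 passed, all toward the hippocampus, among them Ttr (log2 difference 2.10), Folr1 (2.10), Kl (2.06) and Mfrp (2.59). Mfrp had 0 to 5.02 normalized counts in the PFC and was at 1.57 with a pseudocount of 5. It shares 32.3% of its exon bases with C1qtnf5, and 16.9% and 1.25% with the antisense genes RP24-329C11.5 and Rnf26. Without PFC replicates 1 and 2 these differences were 3.06 for Ttr, 2.62 for Folr1, 2.67 for Kl and 2.35 for Mfrp, and 11 of the 14 genes passed. Among 8 genes of ependymal cells, which line the ventricles, 4 were higher in the hippocampus: Tmem212 (2.58), Ccdc153 (1.83), Ak7 (1.60) and Foxj1 (0.71). The Tmem212 call was kept in all 20 alternatives, at 1.59 with a pseudocount of 5, while the calls of Ccdc153, Ak7 and Foxj1 were lost in 5, 7 and 7, and without PFC replicates 1 and 2 the differences were 3.27, 2.69, 2.25 and 0.75 in the order given. From 1 to 5 ependymal genes passed over the alternatives. Fibroblast and leptomeningeal genes were split, with a median log2 difference of -0.26, 4 genes above 0 and 10 below. Dcn (1.01, limma adjusted p = 0.0013) and Pdgfra passed toward the hippocampus, Slc22a6 (-1.22, limma adjusted p = 0.027) passed toward the PFC, and 11 of 14 did not pass. The Dcn call was kept in all 20 alternatives (1.32 without PFC replicates 1 and 2) and that of Slc22a6 was lost in 6. No blood cell gene passed among the 8 tested, and the most abundant, Hbb-b1 and Hbb-b2, had log2 differences of 0.23 and 0.17 (limma adjusted p = 0.71 and 0.72). The summed levels of all 9 blood cell genes overlapped, at 1071 to 2131 normalized counts in hippocampus libraries, against 935 to 1577 in PFC libraries. Gja1, the connexin of astrocytes, was the 1 of 8 astrocyte genes that passed (0.53, limma adjusted p = 0.026), a call lost in 4 alternatives. All 8 astrocyte genes had log2 differences above 0, with a median of 0.21, and 4 had an unadjusted limma p under 0.05. None of 9 microglial genes passed, and the most abundant, C1qc and P2ry12, had -0.20 and 0.17. All 6 neuronal genes tested had log2 differences below 0, with a median of -0.33, and 4 had an unadjusted limma p under 0.05. Tubb3 was the 1 that passed, higher in the PFC (-0.72, limma adjusted p = 0.017), a call lost in 7 alternatives.

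The genes whose values most resembled those of Acta2 over the 8 libraries were sought among 12956 tested genes whose mean reached 20 normalized counts, by the mean absolute difference of log2 values centred on each gene's own mean. Among the 3 nearest were 5330426P16Rik (0.131) and Frmd8 (0.149). Frmd8 had 132, 178, 118 and 122 normalized counts in hippocampus libraries, against 95.3, 85.4, 80.2 and 89.4 in PFC libraries. Like Acta2 it was highest in hippocampus replicate 2 and lowest in hippocampus replicate 3 within that region, whereas in the PFC its highest library was replicate 1 and that of Acta2 was replicate 4. Since these genes were chosen for a pattern in which Acta2 was higher in the hippocampus, their own differences are no test, and neither gene is in the lists of vascular genes.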

How the data were processed

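RNA of 4 hippocampus and 4 PFC libraries was depleted of ribosomal RNA, primed with random hexamers and poly A primers, amplified and sequenced on an Illumina Genome Analyzer IIx. The authors used TopHat2 2.0.9 for alignment to NCBIM37, HTSeq 0.6.0 without strand for counts by gene name, and DESeq for size factors, by which each count was divided. The deposited values are this signal, normalized counts, and multiplied by the size factor 100% were within 1e-06 of whole reads. FPKM values from Cufflinks 2.1.1 were not used.

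Genes with a mean of at least 1 were compared with limma 3.58.1 (R 4.3.3; trend, two-sided, pseudocount 1), adjusted by Benjamini-Hochberg over 19789 genes, at a threshold of 0.05. The pseudocount draws differences of low genes toward 0. The whole reads entered edgeR 4.0.16 (quasi-likelihood test, 1170 genes past the threshold) and DESeq2 1.42.0 (1463 genes). P-values weigh the spread between pools of 2 mice. Other settings were other scalings, pseudocounts and filters, array weights, a replicate block and each library left out. The method was tested on simulated data. Positions and exon lengths came from GENCODE M1.

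The members and lists were chosen with earlier results of these data known, and nothing was adjusted over a list alone. Named genes were the 10 members, up to 4 genes past the threshold per list (or the 2 most abundant), and the 3 genes nearest in pattern to Acta2, of which 1 is not reported here. Ligands of member receptors, contractile and filament genes, other actins, Slc16a1 and Egfl7 were named after values were seen. The Acta2 promoter and CArG box were also chosen after values were seen. No sequence of Pecam1 or Pdgfrb was used. Of the 5 sex-linked genes, 0 passed.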

Additional observations from a re-analysis of the deposited data

Results flagged for a closer look

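Single libraries that stood apart from the other 3 of their region were sought in the members and the named list genes, where the gap to the nearest library, as a share of the region's range, exceeded Dixon's 95% critical value. This was so in 5 of 82 groups of 4 libraries, where chance gives about 1 in 20, and in 0 of the 20 groups of the endothelial and mural genes. In hippocampus replicate 2, Ocln (121 normalized counts), Nrp1 (1415) and Fibcd1 (924) were the highest of the region and P2ry12 (425) was the lowest. Spink8 was highest in hippocampus replicate 1 (217).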

How the results depend on the processing

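Of the 20 alternatives, 1 was added after seeing the data (without PFC replicates 1 and 2 together). The count of genes past the threshold was 1124, 2441 with array weights and 573 to 2216 with 1 library left out (2216 without hippocampus replicate 2, 573 without PFC replicate 3). Samples with the same number did not deviate together (correlations of -0.127, -0.0865, 0.0286 and 0.019). Pairs with unlike numbers ran from -0.131 to 0.212, the latter for hippocampus replicate 2 with PFC replicate 1. As the shared pools are not stated, these values do not tell whether a pairing exists. A block by replicate number gave 729 genes. The 1 call among the members became 0 under the block (Acta2 adjusted p = 0.12 from limma), no filter, a pseudocount of 5, scaling to library totals, without PFC replicates 1 and 2, and in each leave-one-out (0 to 0). Over the lists 23 calls became 41 with array weights and 12 to 38 with 1 library left out. Signs changed only in genes that did not pass. With array weights Tek was 0.15, Pdgfrb 0.0062 and Hbb-b1 -0.016. Pdgfrb was 0.00027 after quantile normalization, and Rgs5 was -0.013 when scaled to library totals. Without PFC replicates 1 and 2, Pdgfrb was 0.018 and Rgs5 -0.047. With 1 library left out, the log2 difference ran from -0.24 to 0.053 for Tek, from -0.083 to 0.017 for Pdgfrb, from -0.036 to 0.077 for Rgs5, from -0.092 to 0.014 for Flt1, from -0.0041 to 0.095 for Pecam1, from -0.042 to 0.38 for Hbb-b1, from -0.050 to 0.29 for Kdm5d and from -0.17 to 0.35 for Xist. The cause was not tested. Depth limits the low genes, with 18 to 139 reads of Acta2 per library.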
